A study of Mus musculus with 12 samples.

Results

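Replication-dependent histone genes are the genes of the Hist1, Hist2, Hist3 and Hist4 groups that supply the nucleosome core histones H2A, H2B, H3 and H4 and the linker histone H1. Members were the rows of the count table whose GENCODE M21 symbol starts with Hist1h, Hist2h, Hist3h or Hist4h and whose counts over the 12 libraries sum to 100 or more. This gave 66 of the 32688 genes in the table, of which 5 encode H1, 19 H2A, 17 H2B, 12 H3 and 13 H4. Of these, 51 lie in the Hist1 cluster on chromosome 13 and 10 in the Hist2 cluster on chromosome 3, while Hist1h2al, at chr13:51202727-51203065, lies outside the Hist1 cluster. Just inside the limit were Hist1h2ba, with 137 counts in all, and Hist3h2ba, with 275. Just outside it were Hist1h2aa, with 11 counts, and Hist1h1t, with 4. All 66 members passed the filter on low counts, and 3 of them (Hist1h2aj, Hist1h2al and Hist3h2bb-ps) are annotated as pseudogenes.

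RNA was sequenced from RAW264.7 cells, a mouse macrophage line, in 4 groups of 3 libraries. Null cells and TFEB/TFE3 double knockout (DKO) cells, made with CRISPR, were each kept as controls or given 100 µM etoposide for 8 h. TFEB and TFE3 are related transcription factors of lysosomal and stress genes, and etoposide poisons topoisomerase II, which leaves breaks in DNA. Controls are untreated by their labels, but DMSO is named for them in the study's methods. Each genotype is a single line, so genotype and line cannot be told apart, and p-values measure the spread between these libraries. The treated libraries are called independent samples in the study, without saying whether that means separate cultures. MEFs, for mouse embryonic fibroblasts, stands beside RAW264.7 in the titles of all 3 DKO libraries given etoposide. These titles lack the word DKO, which the titles of the DKO controls hold. RAW264.7 stands without MEFs in the other labels of these libraries.

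Replication-dependent histone genes are transcribed in S phase, when newly made DNA has to be packed into nucleosomes. Their mRNAs end in a short stem-loop in place of a poly(A) tail, and the stem-loop binding protein SLBP holds that end for processing, translation and timed decay. When DNA synthesis stops these mRNAs are removed quickly, whereas most replacement histone variants, made outside S phase too, have poly(A) tails. The libraries were depleted of ribosomal RNA and not selected for poly(A), so both kinds of transcript were counted.

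The stem-loop is a feature that the members share and that was not used to choose them. In GENCODE M21 transcripts, a 6-base stem opening with GG and its reverse complement, around a 4-base loop made of T, then T or C, then T, then A, C or T, followed the stop codon in 43 of the 49 histone genes with at least 16 bases annotated there. The same pattern was found in 27 of 21020 other protein-coding genes, or 0.128%. The forms found are shown 5′ to 3′ as DNA on the strand of the gene, with the loop in capitals, because they are the part of the RNA that sets these genes apart from others.
Form of 24 H1, H2A, H2B and H3 genes: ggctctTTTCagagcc
Form of Hist1h4d, Hist4h4 and 5 other H4 genes: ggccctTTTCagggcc
Form of Hist1h2bb, Hist1h2bk, Hist1h3c, Hist1h3e and Hist1h3f: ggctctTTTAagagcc
Form of Hist1h4i and Hist2h4: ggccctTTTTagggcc
Form of Hist1h4b and Hist1h4j: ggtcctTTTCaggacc
Form of Hist1h4a: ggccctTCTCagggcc
Form of Hist1h3g: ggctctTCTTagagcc
Form of Hist2h2ac: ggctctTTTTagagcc
The stem that opens with GGCCCT was found, among the members, only in H4 genes. The 6 genes with enough annotated bases and no match were Hist1h1a, Hist1h2bc, Hist1h2bq, Hist1h2br, Hist2h2be and Hist2h3b. Of these, Hist2h2be with 2192 bases after its stop codon, Hist1h2br with 1803 and Hist1h2bq with 1608 also have a poly(A) signal near the annotated end. A poly(A) signal, AATAAA or ATTAAA, lay in the last 50 bases of an annotated transcript in 16 members, against 80.4% of other protein-coding genes.

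Promoters from RefSeq on GRCm38.p6, running from 250 bases before to 50 bases after the start of a gene, were matched for 57 members. Searched on both strands, CCAAT occurred in 84.2% of them against 41.0% of other promoters, and in only 3 of the 12 matched H4 promoters. TATAAA occurred in 59.7% against 15.6% of others. The octamer ATTTGCAT, a motif of POU-domain factors, occurred in 6 of 16 H2A and 6 of 14 H2B promoters and in 1.93% of others. AAACACA, the H1 box, occurred in 4 of 5 H1 promoters and in 8.22% of others. TTTCGCGC, an E2F-type motif, occurred in 15.8% against 0.341%, and the E-box CACGTG in 0 of 57 against 8.11%. Windows of neighbouring H2A and H2B genes can cover the same DNA, so the 57 promoters are not independent and a motif can be counted more than once. The window of Hist1h2bk, chr13:22035571-22035870, overlaps that of Hist1h2ah and holds the same 4 motifs. The promoters printed here belong to the gene with the lowest log2 difference after etoposide in DKO cells, to an abundant H2A gene with 4 of these motifs, and to an H4 gene with none of them. Capitals mark the motifs on either strand.
Hist1h1b: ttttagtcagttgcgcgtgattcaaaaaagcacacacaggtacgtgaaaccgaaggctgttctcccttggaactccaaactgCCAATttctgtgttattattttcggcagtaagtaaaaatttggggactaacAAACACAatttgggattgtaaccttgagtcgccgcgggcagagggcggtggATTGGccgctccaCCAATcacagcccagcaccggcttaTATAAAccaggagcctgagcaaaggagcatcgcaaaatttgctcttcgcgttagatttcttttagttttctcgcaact
Hist1h2ah: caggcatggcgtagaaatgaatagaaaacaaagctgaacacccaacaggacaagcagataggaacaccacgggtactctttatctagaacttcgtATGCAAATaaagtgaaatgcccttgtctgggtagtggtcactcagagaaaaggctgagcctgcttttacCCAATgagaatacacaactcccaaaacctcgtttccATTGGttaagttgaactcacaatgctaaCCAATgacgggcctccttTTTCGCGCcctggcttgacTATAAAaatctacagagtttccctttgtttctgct
Hist4h4: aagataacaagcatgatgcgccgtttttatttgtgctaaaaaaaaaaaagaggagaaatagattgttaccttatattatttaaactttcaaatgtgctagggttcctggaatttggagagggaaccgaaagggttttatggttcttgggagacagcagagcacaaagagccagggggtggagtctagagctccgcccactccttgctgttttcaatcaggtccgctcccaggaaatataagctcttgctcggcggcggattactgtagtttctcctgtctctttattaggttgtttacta
In that order the windows are chr13:21780576-21780875, chr13:22035594-22035893 and chr6:136804382-136804681 on GRCm38.p6, all on the minus strand.

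Library totals ranged from 29837255 to 61809316 counts. Tfeb stood at 16.6 to 17.2 CPM, the counts scaled to a common library size with TMM factors, in Null controls and 3.14 to 5.25 in DKO controls, and Tfe3 at 89.4 to 119 and 31.5 to 42.6 CPM. Both targeted genes were lower in DKO libraries and were still counted there. The sum of 8 macrophage markers was between 4193 and 5132 CPM in every library, with none at 0, and the sum of 8 fibroblast markers was at most 2.04 CPM, at 1.02 to 1.20 CPM in the libraries titled MEFs. Single macrophage markers moved in both directions within that sum. From Null controls to treated DKO cells, Fcgr1 went from 66.9 to 74.3 CPM down to 4.72 to 5.42 CPM, and Spi1 from 201.7 to 230.9 CPM up to 363.1 to 392.5 CPM. Genes inside the exons of another gene held a median of 0.826 of its read density on the opposite strand and 0.790 on the same strand, so the counts show no separation of sense and antisense reads. Of the members, 25 overlap exons of another gene and 28 share at least 50% of their 75-base windows with other genes, so the division of reads among close copies is uncertain. In bulk RNA, fewer cells in S phase and less histone RNA per cell cannot be told apart.

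Histone RNA was lower after etoposide in both lines and lowest in treated DKO cells. Summed over the 66 members, Null controls held 7220, 6344 and 5827 CPM and DKO controls 4994, 5530 and 5635 CPM. After etoposide the sum was 1847, 2114 and 1900 CPM in Null cells and 497, 481 and 513 CPM in DKO cells. The treated groups overlapped neither with each other nor with the controls. Between group means the sum was 3.31-fold lower after etoposide in Null cells and 10.8-fold lower in DKO cells, and treated DKO cells lay 3.93-fold below treated Null cells. As a share of all counts, histone genes took 0.587% to 0.746% in Null controls and 0.0483% to 0.0504% in treated DKO cells. Treated libraries lay below the controls of their line without overlap for 64 members in Null cells and 65 in DKO cells, as did 24.9% and 22.2% of all genes. Every treated DKO library lay below every treated Null library for 65 members and 28.1% of all genes, and above it for 1 member, Hist2h2be, and 27.5% of all genes. In 55 of the 66 genes, every treated DKO library lay below every treated Null library and every treated Null library below all 6 controls, an order found in 4.2% of all genes tested.

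**Figure D1:**
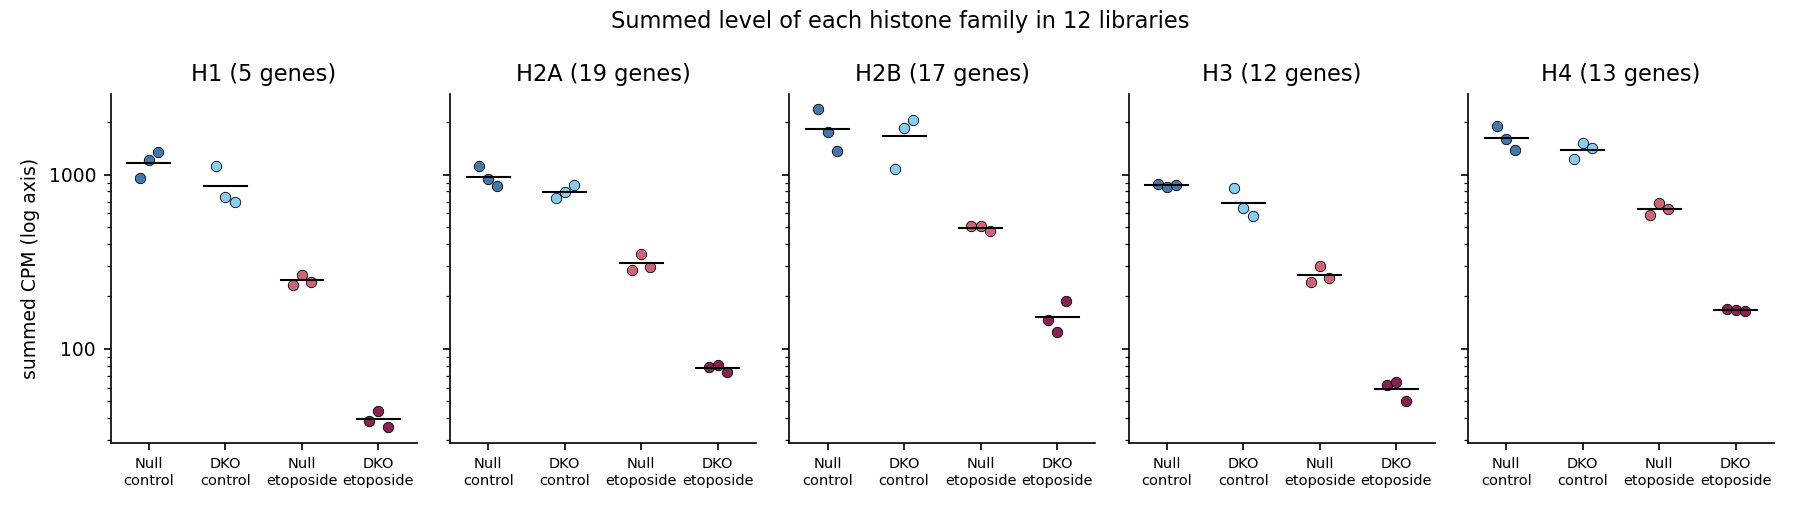
Summed CPM of each histone family on a log axis in the 12 libraries, with points for libraries and bars for the means of 3 libraries. In every family the treated DKO libraries lie below the treated Null libraries, and for H1 the sums are 35.8 to 44.4 CPM against 234 to 267 CPM.

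The effect of etoposide was tested in each line with limma on log2 CPM, with p-values adjusted over 18066 genes. In Null cells 64 of the 66 members fell and 0 rose, where 18.7% of all genes tested fell and 20.9% rose. Hist2h2ab and Hist3h2ba did not pass the test. The median log2 difference was -1.66 over the members, 3.16-fold lower, and 0.03 over all genes. In DKO cells 65 members fell and 0 rose, where 19.1% of all genes fell and 20.2% rose. The median was -3.63 over the members, 12.4-fold lower, and 0.03 over all genes. At an unadjusted p under 0.05, limma, edgeR and DESeq2 each counted 0 members higher in either line. Members past the test with a log2 difference of -1 or lower numbered 57 in Null and 64 in DKO cells, against 4.89% and 6.7% of all genes. Of the 50 genes with the lowest log2 differences, 8 were members in Null cells and 19 in DKO cells.

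The question of whether the response depended on genotype was put to the interaction, the DKO response minus the Null response. It was lower for 54 members and higher for 0, where 6.39% of all genes tested were lower and 3.07% higher, and 0 members were higher at an unadjusted p under 0.05 with limma, edgeR or DESeq2. Of the 54, 53 were at -1 or lower, as were 3.56% of all genes. The median interaction was -1.85 over the members and -0.01 over all genes, and the values ran from -3.15 for Hist1h1b to -0.09 for Hist2h2ab. Members that passed in the interaction included all 5 H1 and 12 H3 genes, 15 of 19 H2A, 12 of 17 H2B and 10 of 13 H4 genes.

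**Figure D2:**
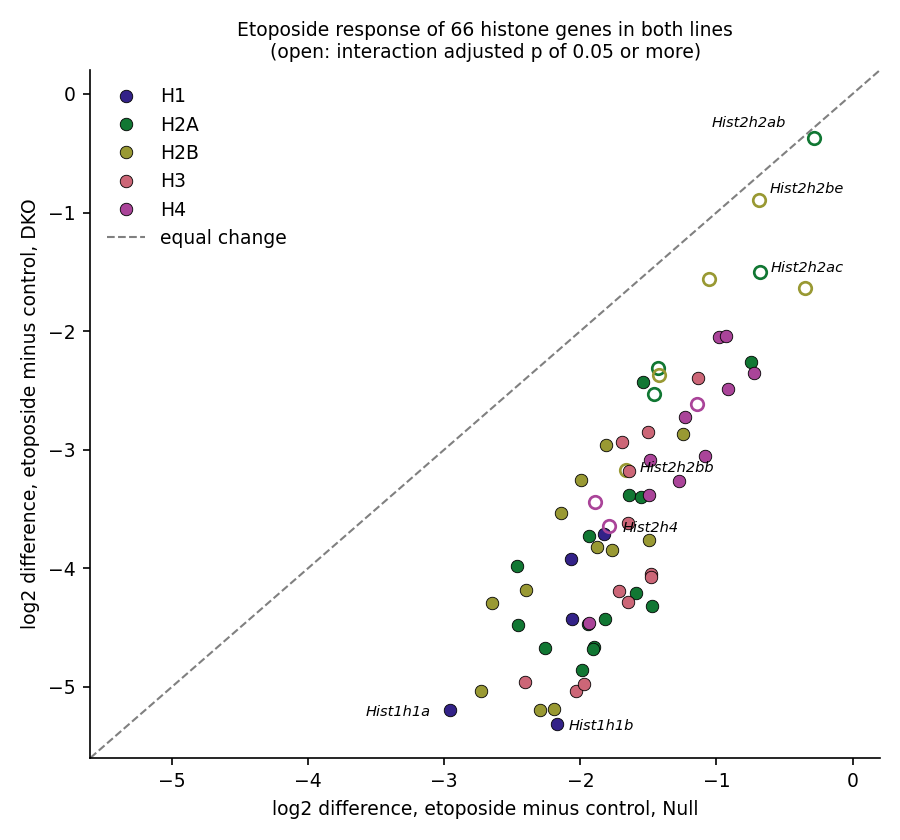
log2 difference after etoposide in Null cells (x axis) and in DKO cells (y axis) for the 66 members, coloured by family, with open points for an interaction adjusted p of 0.05 or more and a dashed line for equal change. All 66 points lie below the line, from Hist2h2ab at -0.28 and -0.38 to Hist1h1b at -2.17 and -5.32.

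The linker histones had the lowest family medians after etoposide in each line. H1 proteins bind the DNA that enters and leaves the nucleosome, and all 5 H1 genes fell in both lines, with median log2 differences of -2.07 in Null and -4.43 in DKO cells. Their summed level was 4.71-fold lower after etoposide in Null cells and 21.6-fold lower in DKO cells. Hist1h1b (chr13:21779883-21780625), which shares no 75-base window with another gene, held 106, 152 and 183 CPM in Null controls and 144, 81.7 and 68.2 CPM in DKO controls. After etoposide it held 31.3, 33.7 and 30.4 CPM in Null cells and 2.49, 2.45 and 1.92 CPM in DKO cells. The controls of the lines overlapped, and the treated groups overlapped with nothing. The log2 difference was -2.17 ± 0.25 (SE, adjusted p = 2.25e-05) in Null and -5.32 ± 0.25 (adjusted p = 5.03e-09) in DKO cells. The interaction was -3.15 ± 0.35 (adjusted p = 8.13e-05). Between treated groups its mean was 13.9-fold lower in DKO cells.

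Hist1h1a (chr13:23763666-23764406), another H1 gene with no shared window, had the lowest log2 difference of the members in Null cells. It held 227, 318 and 362 CPM in Null controls and 343, 222 and 199 CPM in DKO controls. In treated cells it held 36.1, 41.1 and 37.1 CPM in Null cells and 7.32, 7.57 and 5.43 CPM in DKO cells, again with no overlap among the treated groups and the controls. The differences were -2.96 ± 0.21 in Null and -5.19 ± 0.21 in DKO cells, 7.93-fold and 37.6-fold lower. Hist1h1e (chr13:23620629-23622558), which overlaps Hist1h2be, held 306, 376 and 352 CPM in Null controls and 252, 211 and 196 CPM in DKO controls. With etoposide it held 80.2, 85.9 and 79.5 CPM in Null and 13.2, 16.6 and 13.6 CPM in DKO cells. All 4 groups of Hist1h1e were separate, and its log2 differences were -2.07 in Null cells, -3.92 in DKO cells and -0.65 between the controls (adjusted p = 0.00125). Hist1h1d was at -2.06 and -4.43 after etoposide in the 2 lines.

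Of the 19 H2A genes, 18 fell in each line, with medians of -1.64 in Null and -3.98 in DKO cells. H2A pairs with H2B in the dimers that flank the H3-H4 tetramer of the nucleosome. Hist1h2ah, whose promoter is shown above, held 199, 152 and 113 CPM in Null controls and 98.6, 141 and 160 CPM in DKO controls. Treated libraries held 37.7, 47.5 and 36.6 CPM in Null cells and 4.83, 4.60 and 5.72 CPM in DKO cells. The treated groups lay apart from each other and from the controls, which overlapped between the lines. Its log2 differences were -1.90 and -4.68 and its interaction -2.78 (adjusted p = 5.59e-05). All 19 H2A genes overlap exons of a gene on the opposite strand, and at the read density of that gene the overlapped stretch would hold from 6.77% of the counts for Hist1h2ad to 95.8% for Hist1h2ap, so the reads of the genes cannot be told apart there. The share was 82.6% for Hist1h2ah, 82.4% for Hist1h2ag and 89.4% for Hist1h2ak. As 90.0% of the windows of Hist1h2ah occur in other genes, its reads may also include those of other copies. Hist1h2ag held nearly the same levels, 200, 153 and 113 CPM in Null controls and 4.96, 4.55 and 5.82 CPM in treated DKO cells. These genes may therefore not be separate results. Hist1h2ag was at -1.90 and -4.67 and Hist1h2ak at -1.94 and -4.47. Hist1h2al, annotated as a processed pseudogene, was at -1.54 and -2.43.

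The 2 H2A genes that differed least after etoposide lie in the Hist2 cluster. Hist2h2ab held 7.10, 8.82 and 12.4 CPM in Null controls, 9.77, 4.78 and 5.31 in DKO controls, 6.17, 8.66 and 8.03 in treated Null and 4.69, 5.51 and 4.36 in treated DKO cells. The treated lines did not overlap, but the treated and control libraries of each line did, and Hist2h2ab passed in none of the 5 tests (log2 differences of -0.28 ± 0.26, adjusted p = 0.433, in Null and -0.38 ± 0.26, adjusted p = 0.291, in DKO cells). The overlap share described for H2A genes was 59.1% for Hist2h2ab and 74.3% for Hist2h2ac. Hist2h2ac, the gene with the TTTT loop on a GGCTCT stem, held 68.4, 69.9 and 87.4 CPM in Null controls, 82.4, 50.5 and 50.3 in DKO controls, 42.6, 52.6 and 45.5 in treated Null and 21.3, 23.8 and 18.2 in treated DKO cells. It fell in both lines, by 0.68 and 1.5 on the log2 scale, and its interaction did not pass (adjusted p = 0.0711). Without DKO control 3 or Null control 3 that interaction passed.

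All 17 H2B genes fell in DKO cells and 16 in Null cells, with medians of -3.54 and -1.81. Hist1h2bb, one of the genes whose loop ends in A, held 173, 151 and 151 CPM in Null controls and 100, 115 and 131 CPM in DKO controls. After etoposide it held 20.9, 25.8 and 24.7 CPM in Null and 3.62, 3.48 and 3.21 CPM in DKO cells. Its 4 groups did not overlap. The log2 differences were -2.73 ± 0.11 in Null cells and -5.04 ± 0.11 in DKO cells, 6.65-fold and 33.6-fold lower, and the controls differed by -0.46 (adjusted p = 0.0108). Hist1h2bk was at -2.65 and -4.30, Hist1h2bl at -2.30 and -5.20, and Hist1h2be, which overlaps Hist1h1e, at -1.81 and -2.96. At the read density of Hist1h1e, the overlapped stretch would hold 61.3% of the counts of Hist1h2be. Hist1h2ba had 1 count in each treated DKO library and 4 to 10 in treated Null libraries, too few for a fold, and Hist3h2bb-ps was at -1.06 in Null and -1.56 in DKO cells. The calls of both genes between treated lines were lost when single treated libraries were left out, and that of Hist3h2bb-ps in Null cells when any of 5 Null libraries was, between -1.37 and -0.76.

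Hist2h2be (chr3:96221119-96223738), an H2B gene that shares no 75-base window with another gene, was the only member called higher in DKO than in Null controls. It held 6.42, 5.11 and 5.55 CPM in Null controls and 7.72, 8.89 and 7.93 in DKO controls, so every DKO control lay above every Null control. After etoposide it held 3.52, 3.60 and 3.36 CPM in Null and 3.78, 4.20 and 5.23 in DKO cells, again with every DKO library above every Null library. It fell by 0.69 ± 0.14 (adjusted p = 0.00143) and 0.90 ± 0.14 (adjusted p = 0.000207) on the log2 scale in the 2 lines, and its interaction was -0.21 ± 0.19 (adjusted p = 0.644). DKO controls were higher by 0.52 (adjusted p = 0.0162), a call lost without DKO control 2 or Null control 2, and treated DKO cells by 0.32 (adjusted p = 0.0935). Its share of all histone counts was 0.0805% to 0.0952% in Null controls, 0.141% to 0.161% in DKO controls, 0.170% to 0.190% in treated Null and 0.761% to 1.02% in treated DKO cells, while its own CPM was lower in treated cells. The other H2B genes with annotated bases after the stop codon and no stem-loop match fell in both lines and were lower in the interaction: Hist1h2bc was at -1.99 in Null and -3.26 in DKO cells, Hist1h2bq at -1.25 and -2.87, and Hist1h2br at -1.5 and -3.76.

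**Figure D3:**
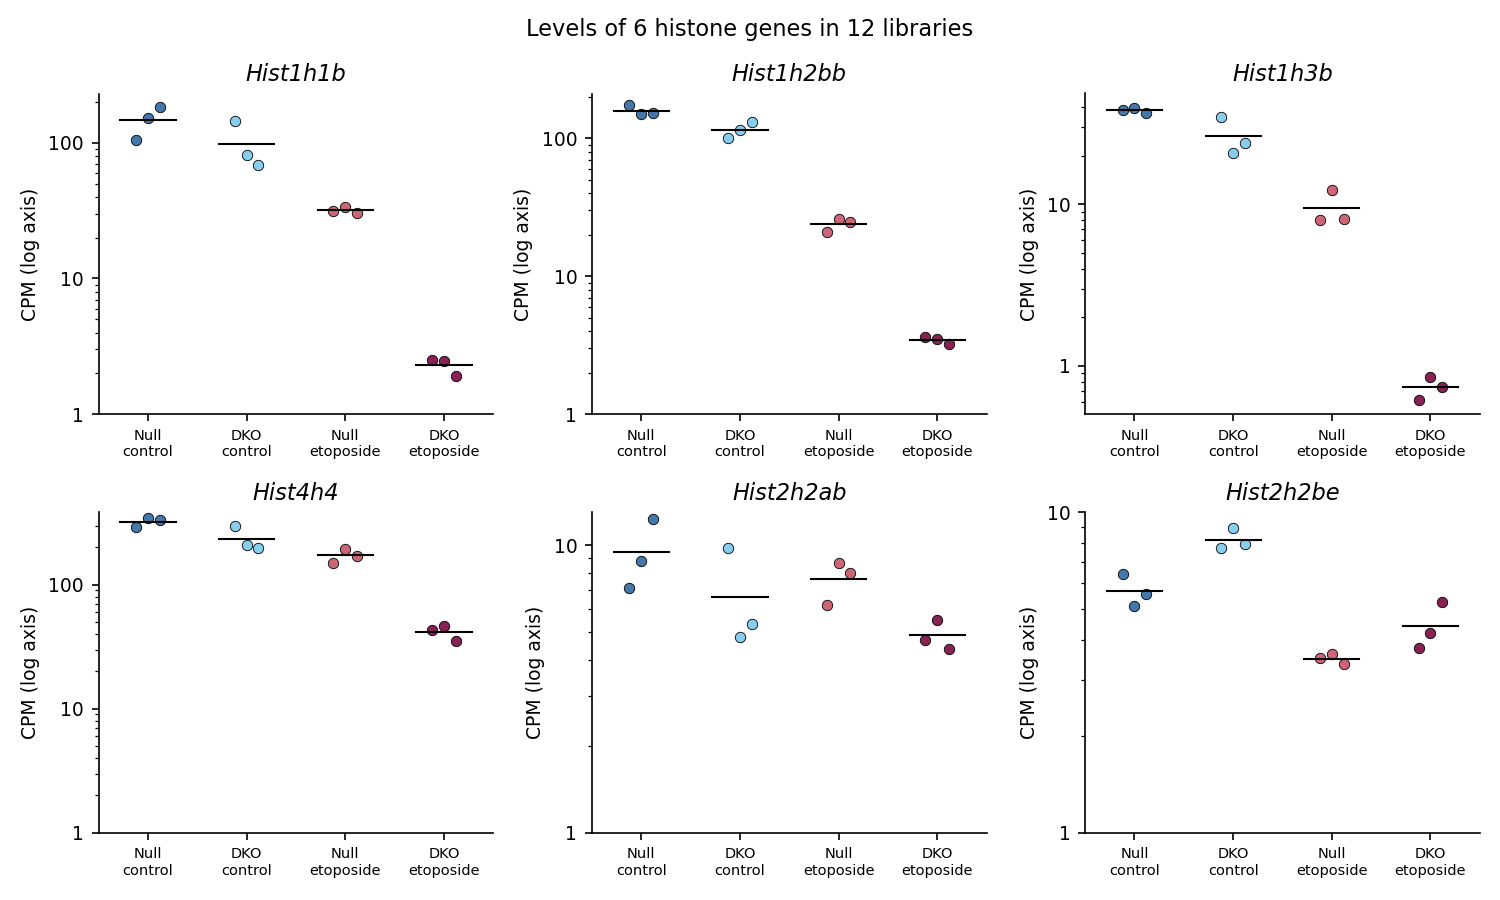
CPM of 6 histone genes on log axes in the 12 libraries, with points for libraries and lines for group means. Hist1h1b, Hist1h2bb and Hist1h3b drop at each step from controls to treated Null to treated DKO libraries, Hist4h4 drops less (35.3 to 46.6 CPM in treated DKO cells), and Hist2h2ab and Hist2h2be stay between 3.36 and 12.4 CPM.

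All 12 H3 genes fell in both lines, and all 12 passed in the interaction. H3 carries many of the histone modifications of the nucleosome, and the family medians were -1.65 in Null and -4.06 in DKO cells. Hist1h3b held 38.3, 39.4 and 36.7 CPM in Null controls and 34.7, 20.9 and 23.9 CPM in DKO controls. After etoposide it held 8.04, 12.2 and 8.16 CPM in Null cells and 0.618, 0.857 and 0.740 CPM in DKO cells. No group overlapped with another. The means were 4.02-fold and 35.9-fold lower after etoposide, and the interaction was -3.0 (adjusted p = 1.9e-05). Hist1h3c, with an A-ended loop, was at -1.97 and -4.98, Hist1h3g at -1.65 and -4.29, Hist1h3e at -1.5 and -2.86, and Hist1h3f at -1.70 and -2.94. Between 36.2% and 59.5% of the windows of these genes occur in other genes. Of the other H3 genes, Hist2h3b lies wholly within exons of Gm20628 and Hist2h3c1 within exons of Gm20634, so their reads cannot be told apart from those genes.

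The 13 H4 genes all fell in both lines, with medians of -1.23 in Null and -3.06 in DKO cells. H4 forms the tetramer with H3 at the centre of the nucleosome. Hist4h4, whose promoter holds none of the motifs searched, held 295, 344 and 331 CPM in Null controls and 298, 211 and 198 CPM in DKO controls. After etoposide it held 150, 196 and 171 CPM in Null and 42.9, 46.6 and 35.3 CPM in DKO cells. The treated DKO libraries lay below all others. Treated Null libraries lay below every control, the highest of them, at 196 CPM, just below the lowest control, a DKO library at 198 CPM. The log2 differences were -0.91 ± 0.16 (adjusted p = 0.000531) and -2.48 ± 0.16 (adjusted p = 8.66e-08), 1.87-fold and 5.66-fold lower. Hist1h4d held 198, 232 and 256 CPM in Null controls, 206, 134 and 121 in DKO controls, 106, 134 and 120 in treated Null and 36.8, 41.1 and 31.5 in treated DKO cells. Treated Null cells thus overlapped with DKO controls for Hist1h4d, which fell by 0.93 and 2.04 on the log2 scale.

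Some H4 calls were narrow. Hist1h4a fell by 0.72 in Null cells (adjusted p = 0.0426), and that call was lost when any of 6 libraries was left out, with log2 differences from -0.88 to -0.63. The interaction of Hist1h4c was -1.07 (adjusted p = 0.042), lost without any of 8 libraries, with values from -1.26 to -0.79. Hist1h4k, at -1.27 and -3.27 after etoposide, had an interaction of -1.99 that no left-out library changed. As a share of all histone counts, H4 genes took 23.8% to 26.3% in Null controls, 31.6% to 33.3% in treated Null and 32.3% to 34.7% in treated DKO cells. H1 genes took 13.2% to 23.2% in Null controls, 12.6% to 12.8% in treated Null and 6.98% to 9.22% in treated DKO cells.

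Treated DKO and treated Null cells, compared directly, differed for nearly every member. In DKO cells 64 of 66 were lower and 0 higher, where 17.8% of all genes tested were lower and 15.9% higher, and at an unadjusted p under 0.05 limma, edgeR and DESeq2 counted 1 higher, Hist2h2be. All 64 were at -1 or lower, as were 8.18% of all genes. The median log2 difference was -2.25 over the members and -0.01 over all genes. Hist1h1b at -3.77, Hist1h3b at -3.56 and Hist1h3c at -3.43 were the lowest, and Hist2h2ac at -1.15 was among the called members nearest to 0. This comparison and the interaction share their treated libraries with the responses of each line. Members with a mean of at least 100 CPM numbered 18 in Null controls, 15 in DKO controls, 4 in treated Null and 1 in treated DKO cells, and those under 1 CPM numbered 2, 2, 5 and 21.

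Fewer members differed between the control groups. In DKO controls 11 members were lower and 1, Hist2h2be, higher, where 8.39% of all genes tested were lower and 10.9% higher, and none of these 12 differed by at least 1 on the log2 scale, where 3.76% of all genes were lower and 3.79% higher by as much. The libraries of the lines did not overlap for 18 members lower and 1 higher in DKO controls, against 13.3% and 14.3% of all genes. The 11 were Hist1h1e, Hist1h2al, Hist1h2bb, Hist1h2be, Hist1h2bj, Hist1h3d, Hist1h3f, Hist1h4d, Hist1h4k, Hist2h3b and Hist2h3c2. Hist1h4k was at -0.65 (adjusted p = 0.025), Hist1h4d at -0.61 (adjusted p = 0.0326), Hist1h3f at -0.51 (adjusted p = 0.0175) and Hist1h2al at -0.38 (adjusted p = 0.0181). These 4 calls were lost without DKO control 2, that of Hist1h4d also without DKO control 3, Null control 2, Null control 3 or Null etoposide 3, that of Hist1h4k also without DKO control 3 or Null control 2, and that of Hist1h2al also without Null control 1. Without 1 library the values ran from -0.85 to -0.45 for Hist1h4d, -0.86 to -0.45 for Hist1h4k, -0.62 to -0.35 for Hist1h3f and -0.44 to -0.33 for Hist1h2al. The median was -0.39 over the members and 0.00 over all genes, and ran from -0.62, without DKO control 1, to -0.36 when 1 library was left out. The count rested on single libraries, being 33 without DKO control 1, 4 without DKO control 2, 6 without DKO control 3 and 7 without Null control 2.

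Control libraries of a line differed from each other in a way that took histone genes in opposite directions. Hist2h2bb held 1662, 1100 and 727 CPM in Null controls and 541, 1324 and 1539 CPM in DKO controls, and Hist2h4 held 1074, 602 and 353 and then 335, 941 and 901 CPM. Hist1h2ap, at 130, 84.5 and 47.8 and then 36.9, 91.9 and 107 CPM, followed the same order. In these genes Null control 1 was high and DKO control 1 low, an order of libraries (Null control 1 above Null control 3, DKO control 1 below both others) found in 15 of the 66 members and 30.9% of all genes. The opposite order was found in 36 members, among them all 5 H1 and 11 of 13 H4 genes, and in 35.7% of all genes. What sets these libraries apart was not tested.

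**Figure D4:**
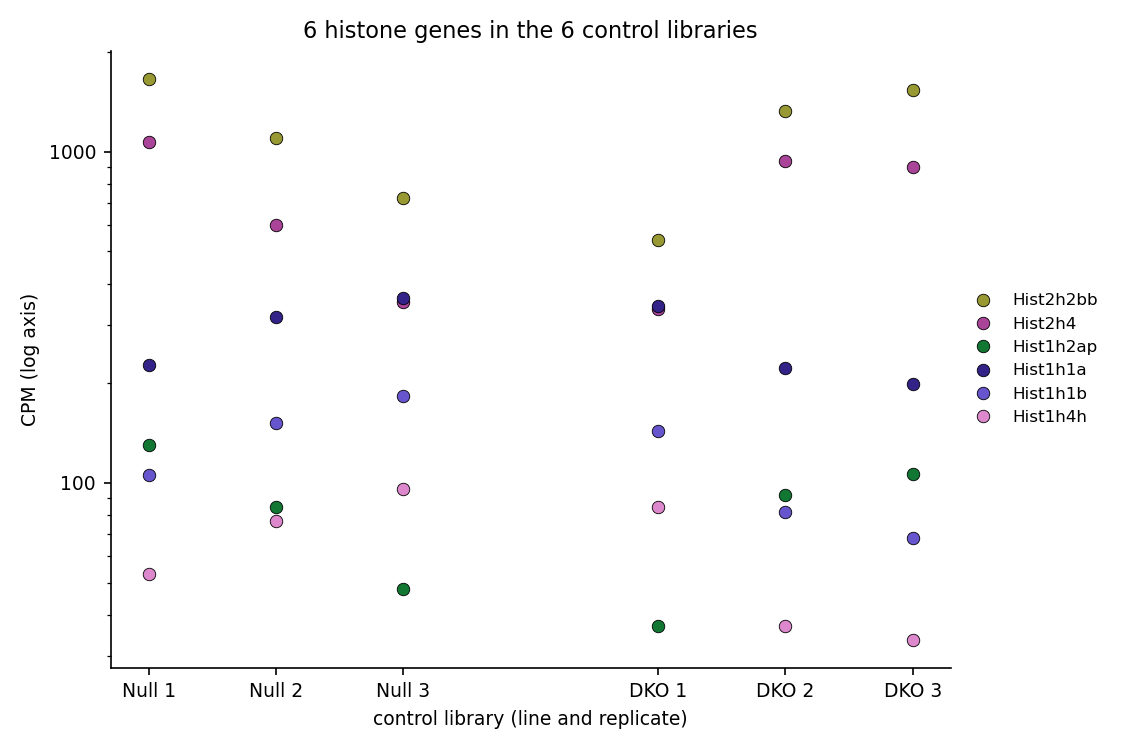
CPM on a log axis of 6 histone genes in the 3 Null and 3 DKO control libraries, with a point for each library. Hist2h2bb, Hist2h4 and Hist1h2ap are high in Null control 1 and low in DKO control 1 (1662 and 541 CPM for Hist2h2bb), and Hist1h1a, Hist1h1b and Hist1h4h lie the other way.

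Hist2h2bb and Hist2h4 had the highest control levels per length of the H2B and H4 genes, 3052 and 415 CPM per kb, and both were subject to that spread. After etoposide Hist2h2bb held 363, 351 and 327 CPM in Null and 111, 88.3 and 153 CPM in DKO cells, and Hist2h4 held 177, 180 and 175 and then 54.4, 38.3 and 69.3 CPM. Neither gene overlapped between treated groups. Hist2h2bb fell by 1.67 ± 0.37 (adjusted p = 0.00316) and 3.17 ± 0.37 (adjusted p = 2.21e-05), and Hist2h4 by 1.79 ± 0.42 and 3.65 ± 0.42 on the log2 scale. Their interactions, at -1.51 (adjusted p = 0.103) and -1.86 (adjusted p = 0.0761), did not pass, but did with DESeq2 and without DKO control 1 or Null control 1. Counts at Hist2h2bb also overlap the exons of Gm42743 and Gm20628. Without these 2 genes the histone sum was 4484, 4642 and 4748 CPM in Null controls, 4119, 3265 and 3194 in DKO controls, 1307, 1584 and 1399 in treated Null and 331, 355 and 290 in treated DKO cells. The separation of the treated groups was therefore there without them too.

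Members were also grouped by sequence features and by cluster, beside 18.7% of all genes lower in Null cells, 19.1% in DKO cells and 6.39% in the interaction. Of the 43 with a stem-loop match 42 fell in Null and 43 in DKO cells. Of the 16 with a poly(A) signal near an annotated end, 15 fell in Null and 16 in DKO cells, with medians of -1.37 and -2.91, and of the 50 without, 49 fell in each line, with medians of -1.68 and -3.87. Among the 14 members with under 10% of windows shared, where reads are least open to mix-up among copies, 13 fell in each line and 10 passed in the interaction, with medians of -1.73 and -3.28 after etoposide. The windows leave out genes at the same locus. Some of the 14, such as Hist1h2be and Hist3h2a, overlap exons of another gene, so reads can still be mixed there. The 51 genes of the Hist1 cluster fell in both lines, with medians of -1.82 and -3.92, and 48 passed in the interaction. In the Hist2 cluster 9 of 10 fell in each line, with medians of -1.44 and -2.46, and 3 passed in the interaction. Differences between these groups of members were not tested.

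Genes that make, process and remove histone mRNA form a list of 27. Of these, 8 fell and 4 rose in Null cells, where 18.7% of all genes fell and 20.9% rose, with a median of -0.07. In DKO cells 10 fell and 3 rose, where 19.1% of all genes fell and 20.2% rose, again with a median of -0.07. Slbp, which encodes the protein that binds the stem-loop, held 53.4, 72.5 and 79.1 CPM in Null controls, 74.1, 52.7 and 51.1 in DKO controls, 63.9, 65.4 and 62.9 in treated Null and 31.6, 36.3 and 29.2 in treated DKO cells. Only the treated DKO libraries of Slbp lay apart, with log2 differences of -0.07 (adjusted p = 0.758) in Null and -0.86 (adjusted p = 0.000984) in DKO cells. Its interaction of -0.79 (adjusted p = 0.0489) was lost when most single libraries were left out, with values from -0.90 to -0.59, and with the replicate number as a block (adjusted p = 0.111).

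Zfp473, a zinc finger protein of histone pre-mRNA processing, was at 3.55 to 4.48 CPM in Null controls, 2.37 to 3.29 in DKO controls, 3.65 to 3.98 in treated Null and 0.854 to 1.23 in treated DKO cells. It was at -0.05 in Null cells (adjusted p = 0.853) and fell by 1.36 in DKO cells, and its interaction was -1.31 (adjusted p = 0.00348). Cdk2, the kinase that with cyclin E acts on the histone gene coactivator Npat, was at -0.10 in Null cells (adjusted p = 0.248) and -1.06 in DKO cells, and Ccne1, cyclin E1, fell by 0.96 and 1.28. Npat was at -0.14 in Null cells (adjusted p = 0.37) and -0.52 in DKO cells. Hinfp, a factor of H4 promoters, rose by 0.72 in Null and 0.23 in DKO cells, where the call was lost without any of 4 DKO libraries, between 0.22 and 0.28. Pou2f1, which binds the octamer, fell by 0.86 and 1.05. Cdkn1a, the p21 inhibitor of cyclin-dependent kinases, was at 41.4 to 53.2 CPM in Null controls and 90.1 to 119 in DKO controls, and rose by 3.03 in Null and 1.59 in DKO cells.

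The replication factors, a second set of S-phase genes, and the histone chaperones were placed beside the histone genes. Of 43 replication factors 34 fell in Null and 43 in DKO cells, with medians of -0.50 and -1.45, and 33 were lower in the interaction, where the shares of all genes that were lower were 18.7%, 19.1% and 6.39%. Rrm2, a subunit of ribonucleotide reductase, held 91.4 to 107 CPM in Null controls, 90.9 to 104 in DKO controls, 74.4 to 82.0 in treated Null and 13.4 to 13.6 in treated DKO cells. It fell by 0.34 in Null and 2.82 in DKO cells. Mcm10, an origin-firing factor, fell by 0.53 and 2.67, Gins1, a subunit of the replicative helicase, by 1.08 and 2.75, and Tk1, thymidine kinase, by 1.84 and 3.29. Pola1 and Prim2, of the DNA polymerase alpha and primase complex, fell in both lines, Pola1 by 1.85 and 2.10 and Prim2 by 1.40 and 1.45. Their interactions, -0.25 ± 0.13 and -0.05 ± 0.13, did not pass (adjusted p = 0.297 and 0.897).

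Of 21 histone chaperones, 17 fell and 1 rose in each line, with medians of -0.45 and -0.50, and 5 were lower in the interaction, beside the same shares of all genes. Asf1b, which carries H3-H4 to new DNA, fell by 0.71 and 2.47, Chaf1b, of the replication-coupled chromatin assembly factor, by 1.01 and 2.29, and Nasp, which guards soluble H3-H4, by 0.92 and 1.73. Hjurp, the chaperone of the centromeric variant CENP-A, held 209 to 221 CPM in Null controls, 155 to 169 in DKO controls, 184 to 189 in treated Null and 35.1 to 36.4 in treated DKO cells. It fell by 0.20 in Null and 2.19 in DKO cells, with an interaction of -1.99. The call of Hjurp in Null cells was lost without Null control 2 or either of 2 treated Null libraries, with log2 differences from -0.22 to -0.18.

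The replacement variants take the place of the S-phase histones in particular nucleosomes, and H2afx mRNA is made both with a stem-loop and with a poly(A) tail. Of 11, 5 fell and 2 rose in Null cells, where 18.7% of all genes fell and 20.9% rose, and 5 fell and 1 rose in DKO cells, where 19.1% fell and 20.2% rose. In the interaction 4 were lower, as were 6.39% of all genes. The medians were -0.40 in Null cells, -1.35 in DKO cells and -0.51 in the interaction. H3f3a and H3f3b, the H3.3 genes, were at -0.05 (adjusted p = 0.823) and 0.29 (adjusted p = 0.0315) in Null cells and at -0.02 and -0.11 in DKO cells (adjusted p = 0.918 and 0.421). H3f3a held 161 to 254 CPM in controls and 169 to 219 CPM in treated cells, so its groups overlapped. Those that fell were H2afz, by 0.84 and 1.34, H2afv, by 0.69 and 2.28, H2afx, by 0.40 and 1.57, and the linker variant H1f0, by 1.10 and 1.75. Cenpa fell by 0.40 in Null cells, and fell by 2.42 in DKO cells. H2afy2, a macroH2A gene at 1.34 to 4.03 CPM in controls, rose by 1.07 and 0.94. Leaving out single libraries removed the calls of H2afy2 in both lines, with log2 differences from 0.78 to 1.27 in Null and 0.56 to 1.19 in DKO cells, and that of H2afx in Null cells, from -0.50 to -0.27.

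**Figure D5:**
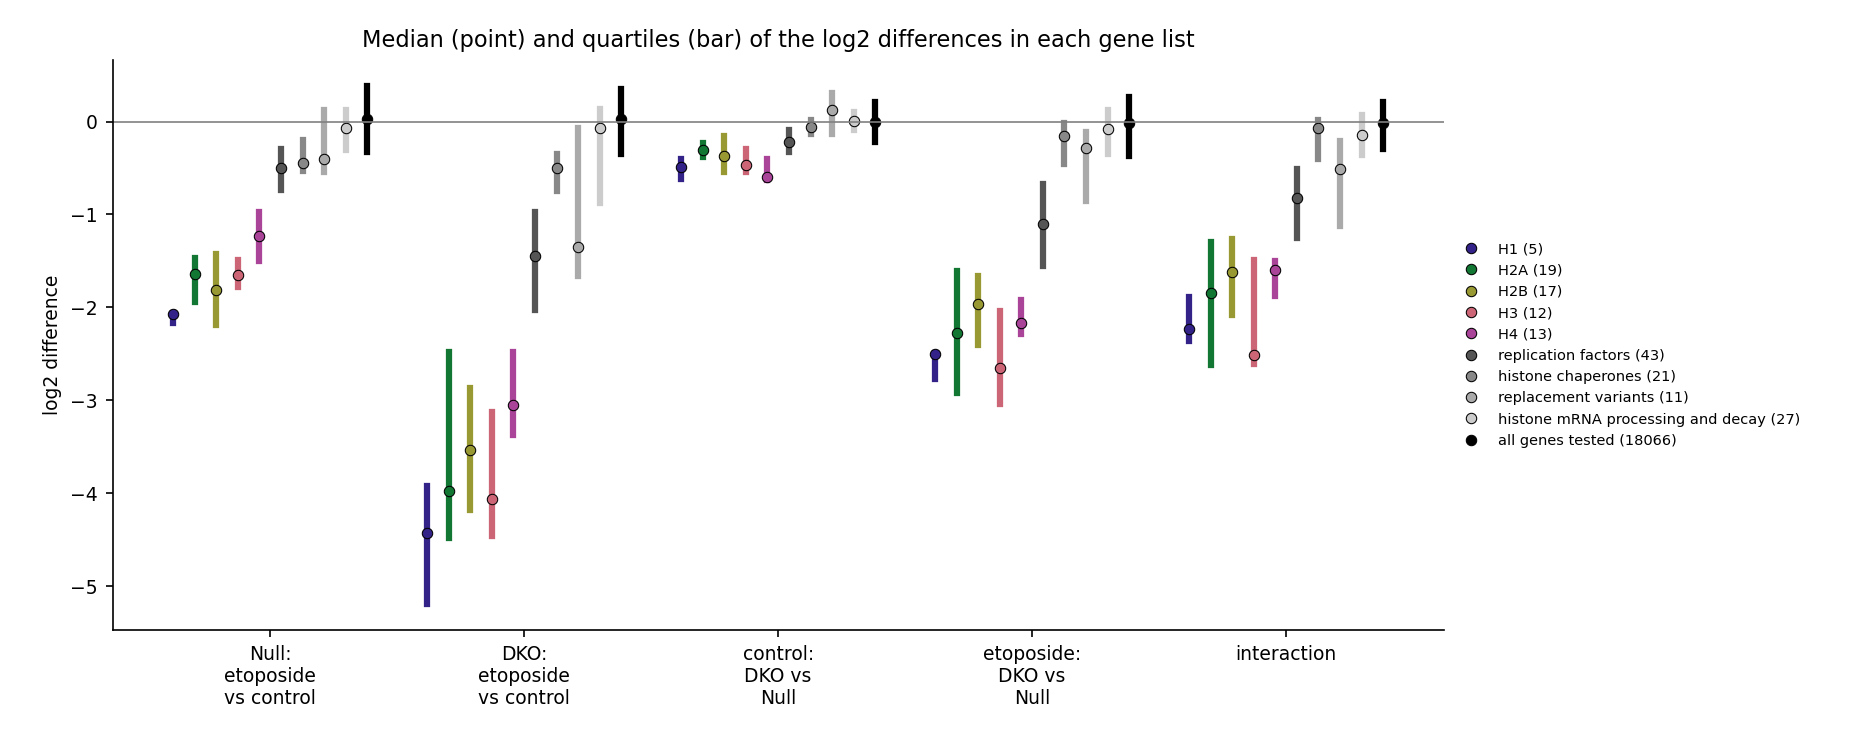
Median log2 difference (points) and quartiles (lines) of the 5 histone families, the 4 lists of related genes and all 18066 genes tested, in the 5 comparisons. Family medians run from -2.07 to -1.23 in Null and from -4.43 to -3.06 in DKO cells, the replication factors lie at -0.50 and -1.45, and all genes at 0.03.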

How the data were processed

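The authors aligned paired reads of 75 bases from ribosomal RNA-depleted, stranded libraries with HISAT2 and deposited raw counts per gene. The study's methods name HTSeq for counting, whereas featureCounts and mm10 stand in the submitters' processing notes, and the strand setting is not given in the sources used here. The methods also say that read pairs were kept for analysis only if uniquely mapped. Of the genes, 99.43% matched GENCODE M21 (GRCm38), from which names, coordinates and transcripts were taken. Of 70 such histone symbols, 68 were in the table.

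Counts were tested with limma 3.58.1 (trend, robust) on log2 CPM with a prior count of 3, TMM scaling and edgeR's filterByExpr (edgeR 4.0.16, R 4.3.3), in 1 model of all 12 libraries. Calls are Benjamini-Hochberg adjusted p under 0.05 over 18066 genes, and adjusted p-values and SE in the text are from this fit. Fold changes between means are ratios of CPM. Alternatives were DESeq2 1.42.0, edgeR's quasi-likelihood test, other scaling, filters and prior counts, a replicate block, fewer groups and leaving out each library. The tests were tried on simulated data with known changes and 1 setting of spread for all genes. That trial lacked the differences between control libraries described above, so it is no evidence for the calls made here.

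Named genes were, per family, the 3 most abundant members, per comparison the 3 called members with the largest and smallest differences and any called against the majority, and per related list the 3 largest in the treated comparison and the Null response, with Slbp, Npat, Cdkn1a, Tfeb and Tfe3. Hist2h2ab, Hist3h2ba, Hist1h2ap, Hist1h2bc, Hist1h2bq, Hist1h2br and the H3.3 genes were named after their values were seen. The members, lists and tests were chosen with earlier results of these data known. The libraries of a group differed by more than counting noise.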

Additional observations from a re-analysis of the deposited data

Results flagged for a closer look

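The response to etoposide differed between DKO and Null cells by the limma interaction test for 22 of the named histone genes and 18 other named genes, which are listed with the log2 interaction. Among H1 genes these were Hist1h1b (-3.15), Hist1h1d (-2.37), Hist1h1a (-2.23) and Hist1h1e (-1.85). Among H2A genes they were Hist1h2ah (-2.78), Hist1h2ag (-2.77), Hist1h2ak (-2.53) and Hist1h2al (-0.89), and among H2B genes Hist1h2bl (-2.90), Hist1h2bb (-2.31), Hist1h2bk (-1.65) and Hist1h2be (-1.15). The H3 genes were Hist1h3c (-3.0), Hist1h3b (-3.0), Hist1h3g (-2.64), Hist1h3e (-1.35) and Hist1h3f (-1.24), and the H4 genes Hist1h4k (-1.99), Hist1h4a (-1.63), Hist4h4 (-1.57), Hist1h4d (-1.11) and Hist1h4c (-1.07).

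The other genes were the replication factors Rrm2 (-2.48), Mcm10 (-2.14), Gins1 (-1.67) and Tk1 (-1.45), the chaperones Hjurp (-1.99), Asf1b (-1.76), Chaf1b (-1.28) and Nasp (-0.82), and the variants Cenpa (-2.02), H2afv (-1.58), H2afx (-1.17) and H1f0 (-0.65). From histone mRNA synthesis and processing they were Zfp473 (-1.31), Cdk2 (-0.96), Slbp (-0.79) and Hinfp (-0.49). The call of Hinfp was lost without DKO etoposide 3, Null etoposide 1 or Null etoposide 2, with values from -0.55 to -0.41 when 1 library was left out. Cdkn1a (-1.44) rose less in DKO than in Null cells, and Tfeb (1.16) fell in Null cells from 16.6 to 17.2 CPM in controls to 7.10 to 7.95 CPM. Groups of 3 libraries were not searched for outlying values.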

How the results depend on the processing

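Counts of members called lower after etoposide were 59 to 64 in Null cells and 64 to 65 in DKO cells when 1 library was left out, 61 to 65 between treated lines and 46 to 56 in the interaction. With the replicate block they were 60, 65, 63 and 48, and 10 with 1 higher between controls. Same-numbered libraries of different groups correlated between -0.54 and 0.39, and libraries of different number at up to 0.58. With 3 libraries in a group, this cannot tell whether same-numbered libraries share more than a number. The block removed the calls of Hist1h4a in Null cells, of Hist3h2bb-ps in Null cells and between treated lines, of H2afy2 and Hinfp in DKO cells, of Hist1h4d between controls (adjusted p = 0.0659) and of Hist1h4c in the interaction (adjusted p = 0.099). Between controls the 11 lower members became 19 with DESeq2, 18 with library size alone, 5 with only the compared groups fitted and 0 with a minimum log2 difference of 1, and 4 to 33 with 1 library left out. The 1 higher member became 0 with only the compared groups or the minimum of 1, and 0 to 1 with 1 library left out. Between treated lines 0 to 1 were higher, 1 without DKO etoposide 1. In subsets chosen after seeing the data, the 14 members with under 10% of windows shared gave 13, 13, 3, 12 and 10 lower (Null, DKO, controls, treated, interaction) and the 41 without exonic overlap gave 40, 41, 7, 40 and 34. Signs turned only where the test did not pass. Without 1 library, log2 differences ran from -0.39 to 0.36 for Hist2h2bb, from -0.29 to 0.58 for Hist2h4 and from -0.067 to 0.22 for H2afv between controls, from -0.24 to 0.042 for Slbp, -0.14 to 0.062 for Tfe3 and -0.12 to 0.046 for Zfp473 in Null cells, from -0.12 to 0.094 for Tfe3 and -0.21 to 0.15 for Tfeb in DKO cells, and from -0.50 to 0.16 for H2afy2, -0.11 to 0.050 for Prim2 and -0.065 to 0.15 for Tfe3 in the interaction. For Tfe3 in DKO cells edgeR gave -0.0027, no filter -0.0065 and the compared groups alone -0.0031. For Tfeb in DKO cells DESeq2 gave -0.0041 and edgeR -0.013, and H2afv between controls was at -0.0015 with library size alone. The causes were not tested.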
